A study of Mus musculus with 6 samples.

Results

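The 8 genes described here are the 4 neuregulins, Nrg1, Nrg2, Nrg3 and Nrg4, and the 4 ErbB receptors, Egfr, Erbb2, Erbb3 and Erbb4. They were chosen by name, and all 8 were among the 24841 genes of the table. Single nuclei were profiled from the dissected, frozen striatum of mice, in 3 wild type libraries and 3 Celsr3 heterozygous libraries. Celsr3 encodes an atypical cadherin of the Flamingo family with roles in axon guidance, and the design asks how the striatum of heterozygous mice differs from that of wild type mice. The labels call the 3 libraries of a group biological replicates. They give no sex, age, strain or litter and do not say what the Celsr3 allele is, and they name no treatment.

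Neuregulins are ligands with an EGF-like domain, most of them made as membrane-bound precursors that proteases cut. They bind Erbb3 and Erbb4, which signal as pairs of receptors, often with Erbb2 as the partner. Erbb2 has no known ligand of its own, and the kinase of Erbb3 is weak. Egfr, the founding receptor of the family, binds EGF, TGF-alpha and related ligands instead of neuregulins. In the forebrain, neuregulin signalling through Erbb4 is best known in GABAergic interneurons and migrating neuroblasts, and Erbb3 is best known in cells that make myelin.

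The deposited values are whole numbers whose totals per nucleus vary little (CV 10.7%), and they are taken here as transcript counts already corrected for depth. A level below is the mean of these values per nucleus in a library, and its SD is taken over libraries. Levels were not divided by gene length, so they are compared between cell classes and not between genes. A share of a gene's total below is a share of these corrected values, in which totals per nucleus vary little, and not of its RNA. Of 48834 nuclei, 47976 were kept after likely doublets were left out, 7600 to 8694 per library. Genes per nucleus had a median of 2438.5 in wild type replicate 1 and 2833 to 3004 in the other libraries. Clustering without the 8 genes gave 43 clusters, and markers that include none of the 8 placed most of them in 17 classes, each called "-like". The other 9 clusters stayed unnamed, and 7221 of the kept nuclei lie in them. The libraries were mixed unevenly. Heterozygous replicate 1 held 32 OPC-like (OPC, oligodendrocyte precursor cell) nuclei against 136 to 317 in the others, and glutamatergic neuron-like nuclei ranged from 275 to 1545 per library. Between libraries, 274 cell barcodes recurred, in 549 nuclei.

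Low values can stem from RNA released by other cells. Microglia-like nuclei, taken here as a reference class, held 5.30 ± 0.654 of Nrg1, 3.40 ± 0.608 of Nrg3, 0.568 ± 0.114 of Nrg2 and 1.47 ± 0.0934 of Erbb4 (SD, n = 6). Whether microglia make some of this RNA themselves was not tested. These are levels for reference and not a background common to all classes, since other classes lay below them, such as D2 MSN-like nuclei with 0.331 of Erbb4 and oligodendrocyte-like nuclei with 3.16 of Nrg1. How much released RNA adds to a level was not tested. In the same nuclei 99.9% had an Nrg1 value above 0, against 73.1% of GABAergic interneuron-like nuclei with a higher level. The share above 0 therefore does not measure detection in this corrected table and is not used to rank classes. Microglia-like nuclei had a median of 1896 genes and GABAergic interneuron-like nuclei of 3678.

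In the GENCODE M21 annotation of GRCm38, Nrg1 lies on the minus strand of chromosome 8 (31814551 to 32884029), Nrg3 on the minus strand of chromosome 14 (38368952 to 39473088) and Erbb4 on the minus strand of chromosome 1 (68032186 to 69108059). They span 1070, 1100 and 1080 kb. Nrg2 lies on the minus strand of chromosome 18 (36017652 to 36197380) and Nrg4 on the minus strand of chromosome 9 (55220222 to 55326844). Egfr (16752203 to 16918158) and Erbb2 (98412470 to 98437716) are on the plus strand of chromosome 11, and Erbb3 on the minus strand of chromosome 10 (128567523 to 128589652). Erbb2 and Erbb3 are the short genes, with 25.2 kb and 22.1 kb. Genes of the table overlap 5 members on the opposite strand: Egfros overlaps Egfr, Nrg3os, Gm20641 and Gm20642 overlap Nrg3, 4930471G03Rik overlaps Nrg2, Fbxo22 overlaps Nrg4 and Mien1 overlaps Erbb2. Gm16076 overlaps Erbb4 on its own strand. Whether reads were counted by strand is not given in the sources used here, so the values of these members are uncertain to the extent that reads were shared.

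Nrg1, the ligand of both Erbb3 and Erbb4, was highest in the 2 main classes of medium spiny neurons (MSN), the projection neurons of the striatum that carry D1 or D2 dopamine receptors. In D2 MSN-like nuclei its level ran from 38.8 over a median of 42.8 to 45.4 per nucleus across the 6 libraries, with a mean of 42.6 ± 2.32. In D1 MSN-like nuclei it ran from 36.2 over 39.5 to 43.2, with a mean of 39.8 ± 2.36. D2 stood above D1 in 5 of 6 libraries, and the ranges overlapped. The lowest D1 library was above the highest library of the next class, eccentric MSN-like nuclei (21.5 ± 4.87), a small MSN population that sits apart from D1 and D2. Cholinergic interneuron-like nuclei (20.96 ± 2.12) and glutamatergic neuron-like nuclei (17.4 ± 1.73) came next. Eccentric MSN-like nuclei were above the cholinergic ones in only 3 of 6 libraries. D1 and D2 MSN-like nuclei are 17.7% and 14.8% of the kept nuclei and held 36.7% and 32.9% of the summed Nrg1 values. GABAergic interneuron-like nuclei had 7.59 ± 1.56.

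Nrg3, a ligand that binds Erbb4, had another order. Of the named classes it was highest in glutamatergic neuron-like nuclei, from 33.6 over 35.8 to 36.4 (35.3 ± 1.23), which were 9.82% of nuclei and held 32.4% of its total. All 6 of these libraries were above every library of the next class, GABAergic interneuron-like nuclei (24.8 ± 2.11), followed by cholinergic interneuron-like (21.5 ± 2.20) and eccentric MSN-like nuclei (16.2 ± 0.743). The glutamatergic class pooled 6 clusters, 3 of them with 10 or more nuclei in every library. Whether its nuclei come from the striatum itself or from tissue next to it was not tested. The main MSN classes differed from each other. D1 MSN-like nuclei ran from 11.4 to 12.2 (11.8 ± 0.348) and D2 MSN-like nuclei from 3.98 to 4.91 (4.45 ± 0.304), so no D2 library reached a D1 library. OPC-like nuclei, at 11.5 ± 1.19, were not separated from D1. The D2 level was close to that of mural-like nuclei (4.398 ± 0.830).

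Nrg2, a less studied neuregulin, was highest in the main MSN classes, at 2.37 ± 0.169 in D2 and 2.29 ± 0.188 in D1 MSN-like nuclei. D2 stood above D1 in 6 of 6 libraries, although the ranges overlapped, 2.12 to 2.60 against 2.098 to 2.535. Eccentric MSN-like nuclei had 1.42 ± 0.141, and GABAergic interneuron-like, glutamatergic neuron-like and OPC-like nuclei between 1.11 and 1.27. Nrg4, known as a ligand of Erbb4 released by fat tissue, was low everywhere. Its highest level was 0.186 ± 0.0384 in cholinergic interneuron-like nuclei, from 0.150 over 0.173 to 0.233. GABAergic interneuron-like nuclei had 0.114 ± 0.0478, lower in 6 of 6 libraries. Their level depended on the clustering. It was 0.0673 at a lower resolution and 0.0699 with the 8 genes in the clustering, below the 0.0717 and 0.0716 of glutamatergic neuron-like nuclei. No value of Nrg4 in any nucleus exceeded 4.

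**Figure D1:**
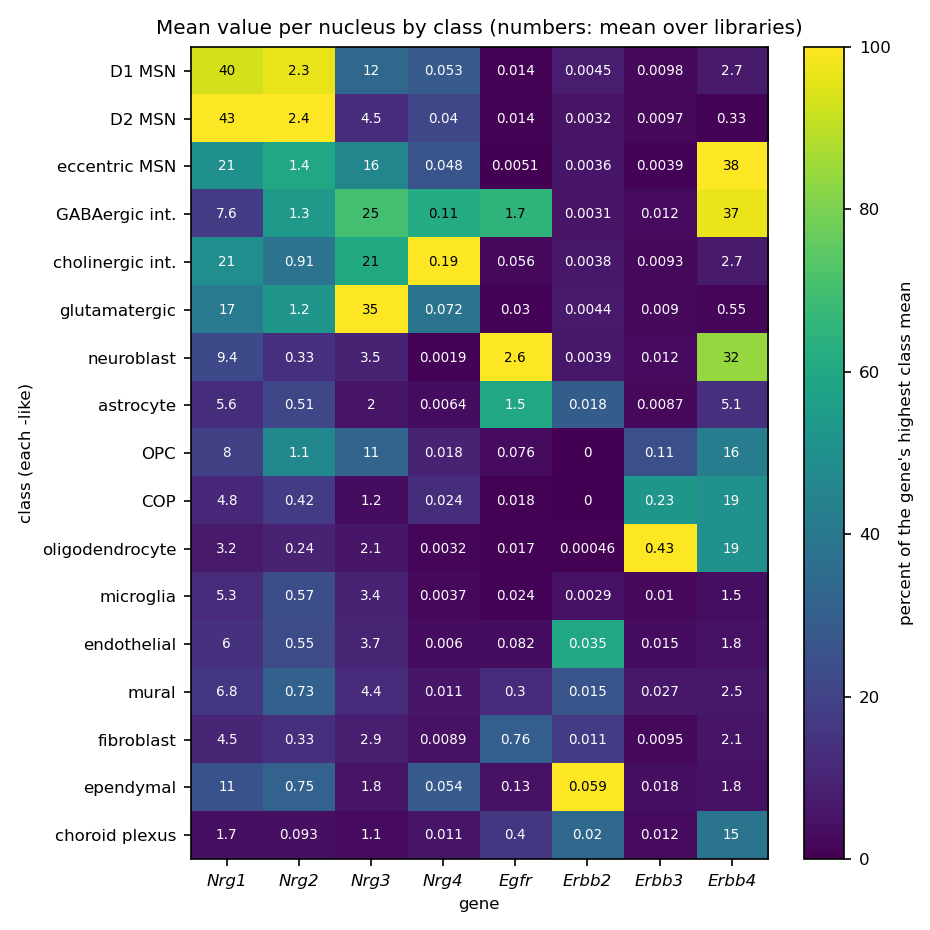
Mean value per nucleus of the 8 genes (columns) in the 17 classes (rows); the printed number is the mean over libraries and the colour is the percent of that gene's highest class mean. Nrg1 and Nrg2 peak in D1 and D2 MSN-like rows, Nrg3 in the glutamatergic row, Erbb3 in the oligodendrocyte row and Egfr in the neuroblast row, while Erbb4 has high levels in 6 or more rows. COP is the committed oligodendrocyte precursor and int. is interneuron.

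Erbb4, the receptor of all 4 neuregulins, was spread over several classes. Eccentric MSN-like nuclei ran from 28.7 over 39.6 to 46.8 (37.9 ± 7.16) and GABAergic interneuron-like nuclei from 23.9 over 37.4 to 43.8 (36.7 ± 7.38). The eccentric class leaves out the larger cluster led by Sim1, which met its marker rule but was left unnamed after its leading genes were seen. The order of classes with that cluster included was not tested. Eccentric MSN-like nuclei were above GABAergic ones in 3 of 6 libraries, and with a coarser clustering the GABAergic class was the highest, at 47.2, but held 1358 nuclei in place of 2021. With the 8 genes in the clustering it held 1481 nuclei and stood at 48.6. Neuroblast-like nuclei ran from 24.8 to 39.2 (31.9 ± 4.83), every library above every library of the next class. This single cluster had all 11 markers of its list, which include those of dividing precursors, but genes of dividing cells such as Top2a, Kif11 and Cenpf led it, so it holds cycling cells. The oligodendrocyte lineage followed, with 19.2 ± 3.13 in committed oligodendrocyte precursor-like (COP-like), 19.1 ± 3.24 in oligodendrocyte-like and 16.0 ± 2.97 in OPC-like nuclei. The ranges of these 3 overlapped. The oligodendrocyte-like level and total leave out an unnamed cluster with Anln and Hapln2 among its leading genes, whose lower Erbb4 level is given below. Because they are many, oligodendrocyte-like nuclei held 25.9% of the summed Erbb4 values, more than the 18.7% in GABAergic interneuron-like nuclei. These values are corrected for depth, so the order need not hold for the amount of Erbb4 RNA. Choroid plexus-like nuclei, present with 10 or more nuclei in only 3 libraries, had 14.6 ± 1.81 (SD, n = 3). Both main MSN classes were low. D1 MSN-like nuclei had 2.72 ± 0.188, D2 MSN-like nuclei 0.331 ± 0.124 and glutamatergic neuron-like nuclei 0.553 ± 0.154, the last 2 below the microglia-like level.

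Erbb3, the receptor of Schwann cells and oligodendrocytes, was highest in the 3 classes of the oligodendrocyte lineage. Oligodendrocyte-like nuclei ran from 0.291 over 0.417 to 0.594 (0.429 ± 0.142), COP-like nuclei from 0.172 to 0.343 (0.228 ± 0.0659) and OPC-like nuclei from 0.0542 to 0.156 (0.106 ± 0.0349). COP-like nuclei were above OPC-like nuclei in 6 of 6 libraries with no overlap, and oligodendrocyte-like above COP-like nuclei in 5 of 6. The other 14 classes had means of 0.0274 or less. Erbb2, the shared partner receptor, was near 0 in every class. Ependymal-like nuclei had 0.0595 ± 0.0733, endothelial-like nuclei 0.0355 ± 0.0199 and astrocyte-like nuclei 0.0175 ± 0.00981, and no value was above 0 in any COP-like or OPC-like nucleus.

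Egfr was highest in neuroblast-like nuclei, from 1.43 over 2.42 to 3.96 (2.55 ± 0.891), then in GABAergic interneuron-like (1.66 ± 0.547) and astrocyte-like nuclei (1.53 ± 0.159). The ranges of these neighbours overlapped. Astrocyte-like nuclei held 55.8% of the summed, depth-corrected Egfr values at 11.1% of the nuclei. Fibroblast-like nuclei had 0.765 ± 0.581. D1 and D2 MSN-like nuclei stood at 0.0135 ± 0.00432 and 0.0137 ± 0.00456, below the microglia-like 0.0241 ± 0.00793.

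**Figure D2:**
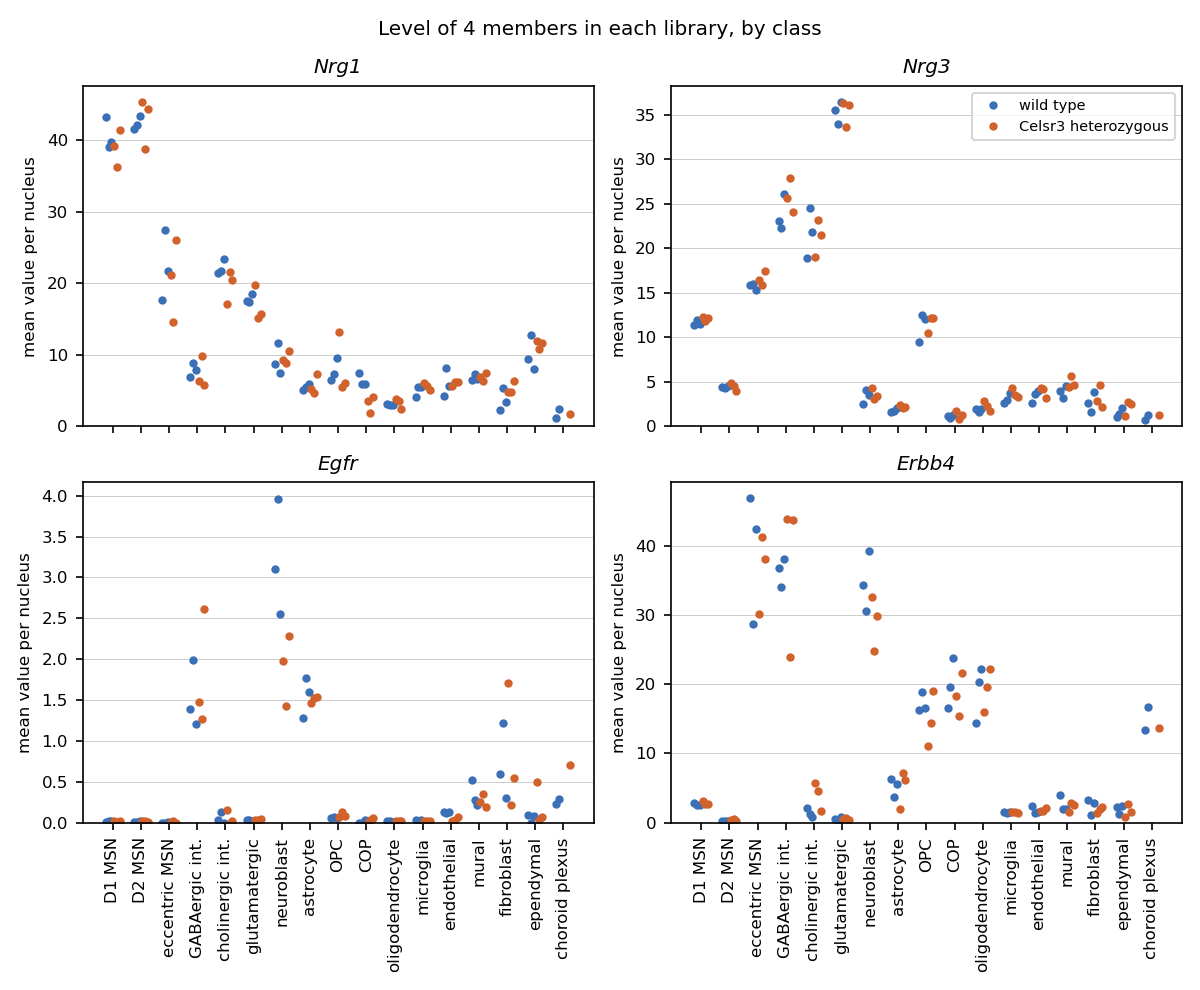
Mean value per nucleus (vertical axes, from 0) of Nrg1, Nrg3, Egfr and Erbb4 in each class (horizontal axis); each point is a library with at least 10 nuclei of the class, wild type in blue and Celsr3 heterozygous in orange. Nrg1 separates the D1 and D2 MSN-like columns from the rest, Nrg3 separates D1 from D2, and the Erbb4 points of eccentric MSN-like and GABAergic interneuron-like nuclei run from 23.9 to 46.8.

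Clusters within a class differed more than many classes did. Among GABAergic interneuron-like clusters, the one named Pvalb/Pthlh-like from its markers (340 nuclei, led by Sfta3-ps and Gna14) held the most Erbb4, from 73.0 to 83.5 per library (78.3 ± 4.78). The cluster led by 9630002D21Rik and Kcnmb2 (433 nuclei) had 54.2 ± 5.04 and the one led by Vip and Sfta3-ps (994 nuclei) 22.9 ± 7.57. Both these clusters also met the marker rule for Pvalb/Pthlh-like, and the name was taken from them after their leading genes were seen. The Sst/Npy/Nos1-like cluster (254 nuclei) had 7.90 ± 2.32. The 6 libraries of the Pvalb/Pthlh-like cluster lay above all libraries of the other 3. Egfr had its highest cluster in the same place, at 4.83 to 7.83 (6.14 ± 1.03) in Pvalb/Pthlh-like nuclei against 1.10 ± 0.647, 0.157 ± 0.144 and 0.0927 ± 0.105 in the other interneuron clusters. Nrg1 was highest in the Vip-led cluster, at 12.3 ± 2.19. It was 3.66 ± 1.21 in the cluster led by 9630002D21Rik, 2.98 ± 0.665 in the Sst/Npy/Nos1-like and 2.09 ± 0.767 in the Pvalb/Pthlh-like cluster, and the ranges of these 3 overlapped.

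Astrocyte-like nuclei fell into 3 clusters. Erbb4 stood at 9.38 to 15.4 (13.4 ± 2.44) in the cluster with Slc6a11, a GABA transporter, and Agt among its leading genes (1510 nuclei). It was 1.61 ± 0.252 in the largest cluster (2951 nuclei, led by Gm26512 and Pdzph1) and 1.99 ± 0.309 in the cluster led by Thbs4 and Veph1, with Gfap among the leading genes (867 nuclei). In that Gfap cluster Nrg1 was 14.1 to 27.3 (19.5 ± 4.41), against 3.03 ± 0.268 and 3.13 ± 0.509 in the other clusters. Egfr was 1.736 ± 0.213, 1.115 ± 0.233 and 1.544 ± 0.213 in the Slc6a11, Gfap and largest clusters. Heterozygous replicate 1 held 42 nuclei of the Slc6a11 cluster, and its Erbb4 level over all astrocyte-like nuclei was 1.95 against 3.65 to 7.09 in the other libraries.

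Among D1 MSN-like clusters, the one led by Impg1 (1205 nuclei) had an Nrg3 level of 23.5 ± 0.927, against 10.9 ± 0.553 and 9.18 ± 0.269 in the others. Among D2 MSN-like clusters, Nrg3 was 11.8 ± 1.48 in the cluster led by 9230009I02Rik (1483 nuclei), 5.17 ± 1.16 in the one led by Calcr (601 nuclei) and 2.23 ± 0.227 in the largest (5016 nuclei). The 2 oligodendrocyte-like clusters differed in both receptors. The smaller (1327 nuclei) had 28.4 ± 2.29 of Erbb4 and 0.676 ± 0.115 of Erbb3, the larger (4043 nuclei) 16.1 ± 2.31 and 0.351 ± 0.120. A further 3006 nuclei, with Anln and Hapln2 among their leading genes and left unnamed, had 9.94 ± 2.19 of Erbb4 and 0.334 ± 0.0580 of Erbb3. The oligodendrocyte-like levels and shares of a total given above do not include them. In an alternative genotype fit that counted them as oligodendrocyte-like, 0 members were called. Among the other unnamed clusters, the one led by Sim1 had an Nrg3 level of 24.9 ± 2.27 and the one led by Ebf2 of 63.6 ± 1.30 (SD, n = 2 libraries with 10 or more nuclei), above that of any class. Both those libraries are heterozygous, with 16 nuclei in replicate 2 and 152 in replicate 3, and the other libraries held 0 to 9.

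**Figure D3:**
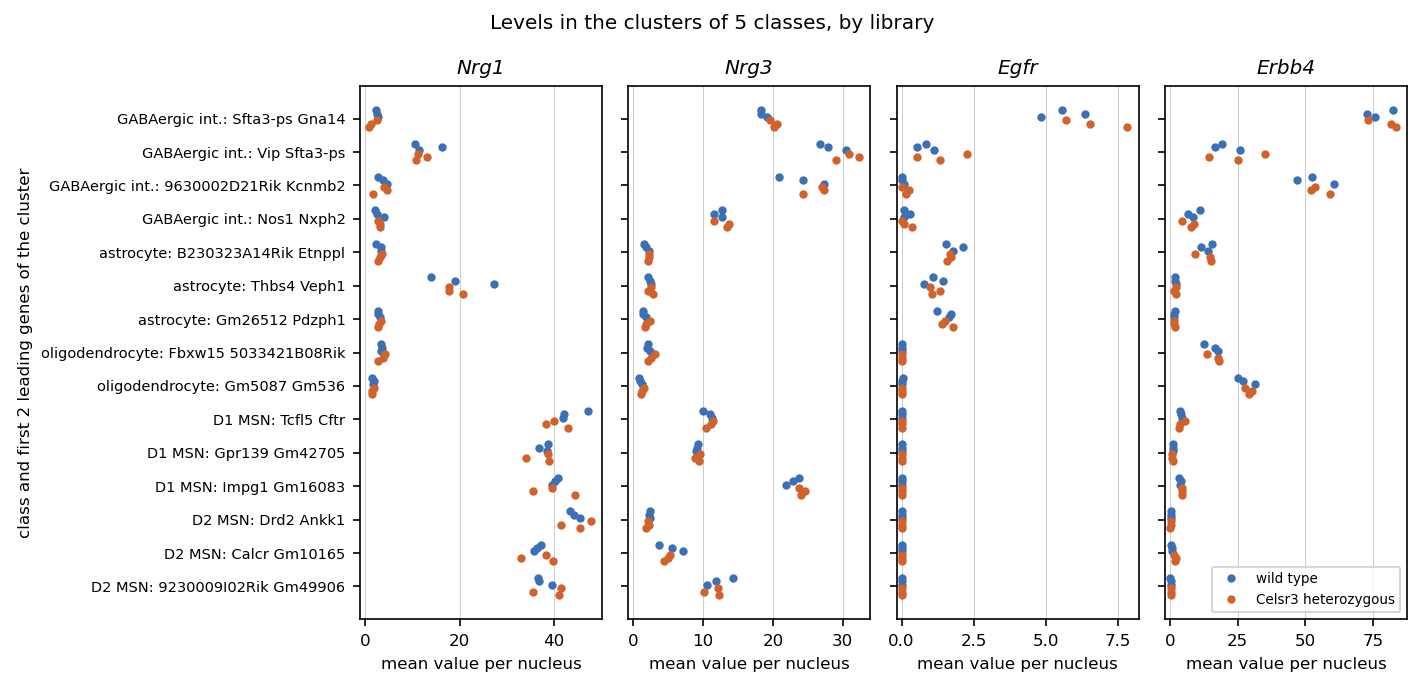
Mean value per nucleus (horizontal axes) of Nrg1, Nrg3, Egfr and Erbb4 in each cluster (rows) of 5 classes; points are libraries, wild type in blue and Celsr3 heterozygous in orange. The top row, the Pvalb/Pthlh-like interneurons, is highest in Erbb4 and Egfr and near the lowest in Nrg1, and the astrocyte-like clusters part in Nrg1 and Erbb4.

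The likeness of patterns was measured as Pearson's r of log2(mean + 0.01) over the 17 classes, which come from the same libraries and share background RNA, and is a description. Nrg1 and Nrg2 were alike (r = 0.891). Every pair of a neuregulin with any of the receptors had an r below 0, from -0.416 for Nrg1 with Egfr to -0.075 for Nrg3 with Erbb4. These pairs include Egfr, which does not bind neuregulins, and the low Nrg4 and Erbb2. With Erbb3 and Erbb4, r was -0.41 and -0.391 for Nrg1, -0.301 and -0.349 for Nrg2, and -0.347 and -0.075 for Nrg3. Over all genes with a class mean of at least 0.1, Nrg3 was most like its overlapping antisense genes Nrg3os (0.977), Gm20642 (0.972) and Gm20641 (0.954), and Egfr most like the overlapping Egfros (0.967). Erbb3 was most like Ninj2 (0.974), Gm10863 (0.965) and Ugt8a (0.964), an enzyme of myelin lipid synthesis. Nrg1 was most like Wscd2 (0.950), Kcnh4 (0.946), a potassium channel, and Insyn1 (0.930). Nrg2 was most like Dok6 (0.926), Ica1l (0.912) and Gabrg3 (0.911), a GABA-A receptor subunit. Erbb4, with its many peaks, had no gene above 0.754 (Gm3143), followed by Sox2ot (0.748) and Immp1l (0.744). Nrg4 (Gm12446, 0.944) and Erbb2 (Pltp, 0.915) are too low for their likeness to be informative.

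A list of 85 other genes of the pathway, 84 of them in the table, places these levels in context. Of the other EGF-family ligands, Tmeff2, a membrane protein with an EGF-like domain, peaked in oligodendrocyte-like nuclei at 48.3, and Areg, amphiregulin, stayed at 0.00632 or less in every class. Of the enzymes that cut ligands, Bace2 peaked in ependymal-like nuclei at 0.913. Among adaptors and effectors, Pik3r3, a regulatory subunit of PI3-kinase, reached 19.3 and Fyn, a Src-family kinase, 20.6 in COP-like nuclei. These were 65.3% and 57.7% of the sum of their class means. Of the negative regulators, Lrig1, which lowers ErbB receptor levels, peaked in astrocyte-like nuclei at 0.995 and Spry1 in fibroblast-like nuclei at 0.150. Of the scaffold partners, Sntb2 and Yap1 peaked in choroid plexus-like nuclei, at 3.80 and 1.27.

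The genotypes were compared in all nuclei and in 14 classes with at least 20 nuclei per library, by limma on log2(mean + 0.01) with 3 libraries against 3 and Benjamini-Hochberg adjustment over all genes tested. Over all nuclei, Celsr3 had levels of 0.0749, 0.1001 and 0.108 in the wild type libraries and of 0.0615, 0.0695 and 0.0649 in the heterozygous ones. It was lower in every heterozygous library, by 0.46 on the log2 scale (SE 0.135, unadjusted p = 0.0117, adjusted p = 0.457). In D1 MSN-like nuclei Celsr3 was 0.150, 0.171 and 0.180 in wild type and 0.0796, 0.101 and 0.101 in heterozygous libraries (-0.77, SE 0.131, adjusted p = 0.126 in limma). Without wild type replicate 1 that adjusted p was 0.0232, and 226 of 13452 genes were called. Over all alternatives it ran from 0.0131 to 0.453 in limma. Celsr3 was thus lower in the libraries labelled heterozygous.

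None of the 8 genes passed an adjusted p of 0.05 in any of the 15 populations. Of 70 member tests in limma, 6 had an unadjusted p under 0.05, and 6 had groups that did not overlap, 4 of them higher and 2 lower in heterozygous libraries. Over all genes and the same 15 populations, 6.73% of 120846 tests had such a p and 12.7% had groups that did not overlap, so the members' counts lie near or below the background. Over all nuclei, 0% of 14398 genes were called, and 19.3% had groups that did not overlap. Of the 7 members tested there, none did. Nrg1 had levels of 16.9, 22.3 and 18.9 in wild type and 21.4, 18.3 and 17.3 in heterozygous libraries. Nrg2 had 1.10, 1.27 and 1.17 against 1.39, 1.38 and 1.22, and Nrg3 9.43, 7.94 and 11.4 against 13.98, 11.1 and 11.3. The Nrg3 difference of 0.34 (SE 0.160, unadjusted p = 0.0686, adjusted p = 0.507 in limma) was 0.06 when each cluster was given the same weight in all libraries. Nrg4 (log2 difference 0.11 ± 0.247), Egfr (0.04 ± 0.121) and Erbb4 (-0.01 ± 0.138) differed by less than their standard errors. Erbb3 had 0.0807, 0.0984 and 0.101 against 0.0444, 0.0599 and 0.101, a difference of -0.46 (SE 0.247, adjusted p = 0.528 in limma). It was -0.23 without heterozygous replicate 1, -0.74 without heterozygous replicate 3 and -0.14 when the same 31 clusters were weighted alike. The summed oligodendrocyte markers over all nuclei moved with it, at 37.75 to 44.66 in wild type and at 21.83, 27.52 and 44.95 in heterozygous replicates 1, 2 and 3, and their part in the result was not tested beyond that weighting. Erbb2 was below the level tested.

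**Figure D4:**
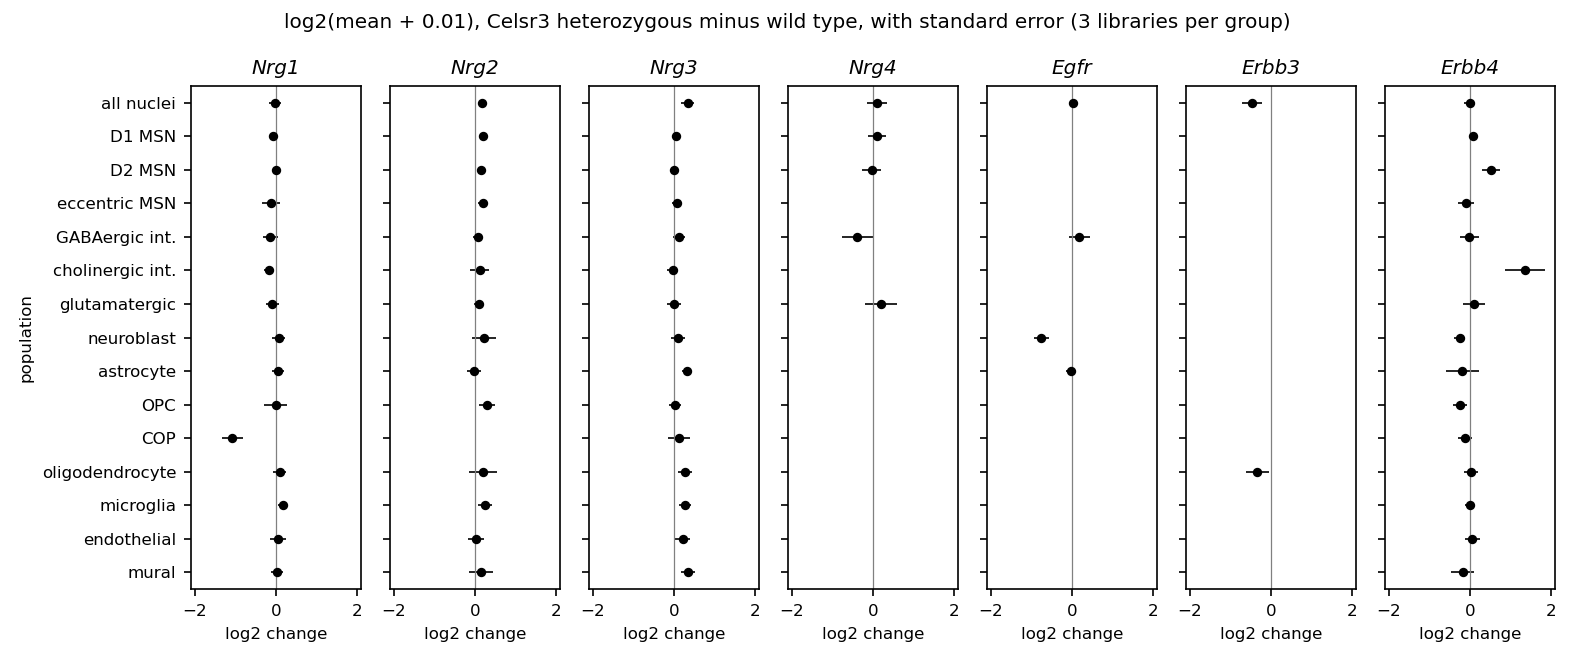
Difference in log2(mean + 0.01) between Celsr3 heterozygous and wild type libraries (horizontal axes) for the members tested in each population (rows), with standard errors; 3 libraries per group. Most points lie within 0.5 of 0, and those farthest out are Erbb4 in cholinergic interneuron-like, Nrg1 in COP-like and Egfr in neuroblast-like nuclei. Erbb2 passed the filter in no population.

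Nrg2 was higher in the heterozygous libraries of 3 MSN classes. In D1 MSN-like nuclei its levels were 2.198, 2.105 and 2.098 in wild type and 2.345, 2.475 and 2.535 in heterozygous libraries, and every heterozygous library lay above every wild type library. The difference was 0.20 (SE 0.0637, unadjusted p = 0.0121, adjusted p = 0.376 in limma), against a median of 0.056 over all genes in these nuclei. With size factors it was 0.15 and with limma array weights 0.23, where the adjusted p was 0.0474 and 460 of 13452 genes were called; over all alternatives it ran up to 0.86. In D2 MSN-like nuclei Nrg2 had 2.30, 2.12 and 2.33 against 2.37, 2.51 and 2.60, again without overlap but with a narrow gap (0.15, SE 0.0704, adjusted p = 0.62 in limma). In eccentric MSN-like nuclei it had 1.18, 1.33 and 1.47 against 1.48, 1.49 and 1.57 (0.20, SE 0.126, adjusted p = 0.969 in limma), and the difference was 0.12 without wild type replicate 1. Non-overlapping groups were common in these classes, at 16.3% of genes in D1, 14.6% in D2 and 10.3% in eccentric MSN-like nuclei. Genes called by adjusted p made up 0.0297%, 0.0157% and 0%, namely Mid1, Gm15726, A330015K06Rik and Rpl29 in D1 and Mid1 and Gm15726 in D2 MSN-like nuclei. Each class had 5, 5 and 4 members tested, and Nrg2 alone of them was without overlap.

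D2 MSN-like nuclei of the wild type libraries had Erbb4 levels of 0.229, 0.268 and 0.293, against 0.362, 0.567 and 0.268 for the heterozygous ones. Heterozygous replicate 3 lay among the wild type libraries. The difference was 0.52 (SE 0.225, unadjusted p = 0.0446, adjusted p = 0.568 in limma) and 0.24 without heterozygous replicate 2. All these levels are below that of microglia-like nuclei. In D1 MSN-like nuclei the groups overlapped, and the D1 difference minus the D2 difference was -0.43 (SE 0.201, unadjusted p = 0.0467, adjusted p = 0.995 in limma) and -0.12 without heterozygous replicate 2. In cholinergic interneuron-like nuclei, 30 to 44 per library, Erbb4 was 2.17, 1.30 and 0.867 against 5.66, 4.63 and 1.61. The difference was 1.36 (SE 0.495, unadjusted p = 0.0249, adjusted p = 0.841 in limma), and heterozygous replicate 3 lay within the wild type range. Wild type replicates 2 and 3 were below the microglia-like mean of 1.47 and heterozygous replicate 3 was near it. The summed markers of Pvalb/Pthlh interneurons, where Erbb4 is highest, were 4.67 to 11.6 in the wild type and 2.59 to 9.86 in the heterozygous libraries of this class. In these nuclei 0% of 1429 genes were called and 9.94% did not overlap.

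Nrg1 was lower in COP-like nuclei, the class that bridges precursors and oligodendrocytes. Its levels were 7.41, 5.86 and 5.90 in wild type and 3.55, 1.86 and 4.12 in heterozygous libraries, without overlap, in 29 to 75 nuclei per library. The difference was -1.08 (SE 0.257, unadjusted p = 0.00107, adjusted p = 0.371 in limma). It ranged from -1.30 to -0.73 when libraries were left out in turn. Without heterozygous replicate 3 the adjusted p was 0.0435, where 10 of 2074 genes were called, and over all alternatives it ran up to 0.964. The share of nuclei above 0 gave an unadjusted p of 0.341 in limma. That share does not measure detection in this corrected table, so this p cannot decide whether the level differed. Every wild type level is above the microglia-like mean of 5.30, that of wild type replicate 1 also above the highest microglia-like library (5.997), and every heterozygous level is below that mean. In OPC-like nuclei Nrg1 had 6.42, 7.27 and 9.61 in wild type and 13.2, 5.52 and 6.11 in heterozygous libraries. Heterozygous replicates 2 and 3 lay below every wild type library there, and replicate 1, with 32 nuclei, above them. The difference in COP-like minus that in OPC-like nuclei was -1.07 (SE 0.407, unadjusted p = 0.0179, adjusted p = 0.945 in limma) and -0.80 without heterozygous replicate 1. The summed astrocyte markers in COP-like nuclei were 3.28 to 4.46 in wild type and 2.53 to 3.31 in heterozygous libraries, with 3 of 10 lower in every heterozygous library. The summed D2 MSN markers were 1.75 to 2.38 against 2.31 to 3.09. Their part in the result was not tested. In COP-like nuclei 12.1% of genes did not overlap and 0% were called, against 1 and 0 of 3 members.

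Egfr was lower in neuroblast-like nuclei, with 3.10, 3.96 and 2.56 in wild type and 1.98, 1.43 and 2.28 in heterozygous libraries. No heterozygous library reached a wild type library. The difference was -0.76 (SE 0.187, unadjusted p = 0.000983, adjusted p = 0.957 in limma), with -0.91 to -0.57 when libraries were left out in turn. It was -1.45 in nuclei matched on genes per nucleus, a random draw of only 42 per library. In astrocyte-like nuclei, Egfr was alike, at 1.55 ± 0.245 and 1.51 ± 0.0424 (SD, n = 3), and the difference between the classes was -0.73 (SE 0.229, unadjusted p = 0.0059, adjusted p = 0.987 in limma). Within neuroblast-like nuclei, Mki67, a marker of dividing cells, was 0.517, 1.16 and 0.555 against 0.808, 0.618 and 0.697, with overlap. The summed astrocyte markers, a class that also holds Egfr, were 9.93 to 10.8 in wild type and 8.24 to 9.19 in heterozygous libraries, with 3 of 10 lower in every heterozygous library. Their part in the result was not tested. In neuroblast-like nuclei 9.83% of genes did not overlap and 0% were called, against 1 and 0 of 5 members.

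Astrocyte-like nuclei had Nrg3 levels of 1.62, 1.67 and 2.01 in wild type against 2.37, 2.04 and 2.15 in heterozygous libraries, without overlap. The difference was 0.31 (SE 0.108, unadjusted p = 0.017, adjusted p = 0.656 in limma), and 0.26 with clusters weighted alike. All these levels are below that of microglia-like nuclei, where Nrg3 was 3.08 ± 0.581 and 3.71 ± 0.544 (SD, n = 3). In astrocyte-like nuclei 12% of genes did not overlap and 0% were called, against 1 and 0 of 5 members.

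**Figure D5:**
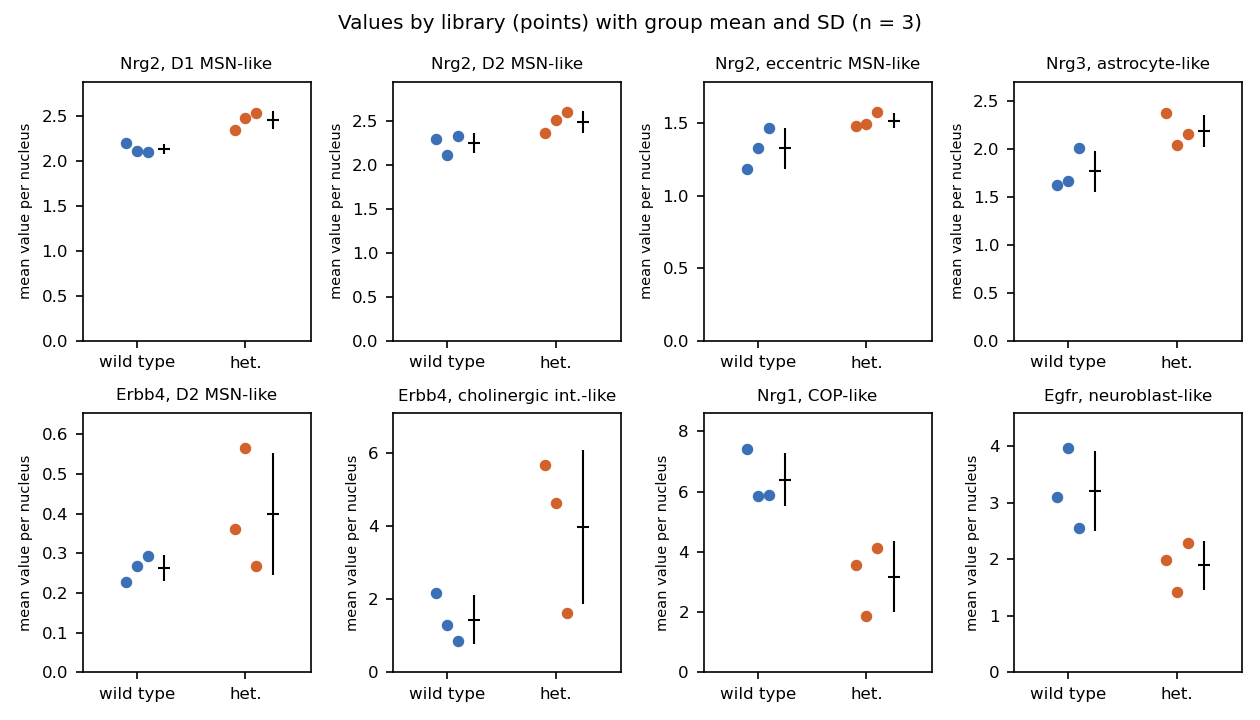
Mean value per nucleus (vertical axes, from 0) of the 8 member and class pairs named for their difference; points are libraries, wild type in blue and Celsr3 heterozygous in orange, and the short line and bar to their right are the group mean and SD (n = 3). The Nrg2 groups part by a small margin, the 2 Erbb4 panels overlap through heterozygous replicate 3, and Nrg1 in COP-like and Egfr in neuroblast-like nuclei lie lower in every heterozygous library.

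The members tested in the other 7 classes had groups that overlapped. There were 6 in GABAergic interneuron-like nuclei, where 11.7% of all genes did not overlap. There were 4 in OPC-like (10.1%), 4 in endothelial-like (9.13%), 5 in glutamatergic neuron-like (10.6%), 4 in microglia-like (10.2%), 4 in mural-like (9.7%) and 5 in oligodendrocyte-like nuclei (9.87%). In each of these 0% of genes were called. Nrg3 had a higher mean in heterozygous libraries in 14 of 15 populations and Nrg2 in 13 of 14, and with size factors in 11 of 15 and 13 of 14. Over all genes and populations 57.9% of differences were above 0, and 50.6% with size factors. The populations share libraries and are not independent. In oligodendrocyte-like nuclei the wild type libraries had 0.483 ± 0.162 of Erbb3 and the heterozygous ones 0.375 ± 0.125 (SD, n = 3). Of 50 pairs of a member and a population below the level tested, 48 had a value above 0 in a library, and 4 of these did not overlap. Of all such pairs of genes and populations, 7.73% did not overlap. The pair with the highest levels was Egfr in endothelial-like nuclei, with 0.131, 0.112 and 0.124 against 0.0244, 0.0312 and 0.0698. The others were Erbb3 in GABAergic interneuron-like and astrocyte-like nuclei and Erbb2 in eccentric MSN-like nuclei, all under 0.02. The differences of effect between D1 and D2, neuroblast and astrocyte, and COP and OPC classes were called for 0% of genes.

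None of the other pathway genes was called in any population (limma, 824 tests, 48 with an unadjusted p under 0.05, against the 6.73% of all genes). Over all nuclei, 30 of 38 adaptors and effectors, 8 of 9 ligand processing genes, 8 of 12 negative regulators, 6 of 10 scaffold partners and 2 of 6 other ligands had a higher mean in heterozygous libraries, as had 69.2% of all genes. With size factors these counts were 24, 4, 6, 4 and 1, and the share of all genes 51.8%. Their medians, from -0.035 for the ligands to 0.095 for the adaptors, lie around the 0.070 of all genes. In D1 MSN-like nuclei, all 5 lists had medians at or above the median of all genes (0.056), from 0.060 for scaffold partners to 0.136 for negative regulators. Of the 37 adaptors and effectors tested there, 31 were higher and 6 lower in the mean, where 64.7% of all genes were higher. With size factors 27 were higher, against 51.4% of all genes. Without that scaling 9 were higher without overlap, where 16.3% of all genes did not overlap in either direction. Gab2, a docking protein downstream of receptors, had 0.331, 0.260 and 0.260 in wild type and 0.487, 0.615 and 0.364 in heterozygous D1 MSN-like nuclei (0.74, SE 0.177, unadjusted p = 0.00233, adjusted p = 0.231 in limma). These levels are far below the Gab2 means of fibroblast-like (4.83) and microglia-like nuclei (4.71), its highest classes. The part of released RNA in this difference was not tested. In D2 MSN-like nuclei the Gab2 difference was 0.52 (SE 0.178, adjusted p = 0.455 in limma), and heterozygous replicate 3 lay within the wild type range. Pik3r1, a PI3-kinase subunit (0.33, adjusted p = 0.355), and Sos1, which activates Ras (0.26, adjusted p = 0.4), were next in D1, and Sos2 (0.27, adjusted p = 0.481) and the adaptor Grb2 (0.21, adjusted p = 0.558) in D2 MSN-like nuclei, all by limma. Over all nuclei the smallest unadjusted p belonged to Dlg3, a synaptic scaffold (0.19, adjusted p = 0.464), Errfi1, a feedback inhibitor of Egfr (0.29, adjusted p = 0.474), and Stat5b (0.25, adjusted p = 0.49), again by limma.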

How the data were processed

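Nuclei from frozen mouse striatum were profiled with 10x Genomics 3′ chemistry, 3 wild type and 3 Celsr3 heterozygous libraries with 1 library per biological replicate. Per the submitters' processing notes the tools were Cell Ranger and Seurat 4.1 and the build mm10 (GRCm38). The values the authors deposited are treated as a score: whole numbers with totals of 4523 to 10638 per nucleus, which look like transcript counts corrected for depth and rounded, although no source used here says so. The original depth is unknown and no count model was used. Here 858 of 48834 nuclei (1.76%) were left out as likely doublets, with a Scrublet score over 0.25 or in 5 clusters where over 40% of nuclei had one; Scrublet's own calls were under 0.5% in 2 libraries. Clusters came from scanpy 1.11.5 (2000 variable genes without the 8 members, 30 components, 15 neighbours, Leiden resolution 1.0). A cluster was named where at least 3 markers of a class were over 2-fold higher. The rule named the cluster led by Sim1 eccentric MSN-like, with 4 of 7 markers up. It named the interneuron clusters led by Vip and by 9630002D21Rik Pvalb/Pthlh-like. After their leading genes were seen, the Sim1 cluster was left unnamed and both interneuron clusters lost that subclass name.

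Values were averaged per library and class. Groups were compared with limma 3.58.1 (R 4.3.3) on log2(mean + 0.01), with a trended variance and Benjamini-Hochberg adjustment over all genes with a mean of at least 0.02 and a summed value averaging at least 30 per library, for classes of 20 or more nuclei per library. Fold changes on this scale understate those of low genes. Differences between classes were tested in a joint model with the library as a block. Named members are all 8 over all nuclei and, in a class, those with an unadjusted p under 0.05 or groups without overlap; pathway genes are the 3 of smallest p in each of 3 populations, and like genes the 3 of highest r. The members and lists were chosen with earlier results of these data known. The fit was tested on simulated data. Alternatives were the pseudocount, the filter, scaling, weights, doublets, matched nuclei, other summaries per nucleus, the replicate number and leaving out each library.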

Additional observations from a re-analysis of the deposited data

Results flagged for a closer look

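Dixon's ratio was taken for the 89 class levels with a mean of at least 0.02 and values in all 6 libraries. In 5 of them a library's gap to the nearest other library, as a part of the range, exceeded Dixon's 95% critical value. Chance flags about 1 in 20. Egfr in ependymal-like nuclei was 0.5 in heterozygous replicate 1, from 10 nuclei. Egfr in OPC-like nuclei was 0.128 in heterozygous replicate 2. Erbb2 in endothelial-like nuclei was 0.0732 in heterozygous replicate 1. Nrg4 was 0.0819 in D1 MSN-like nuclei of heterozygous replicate 2 and 0.103 in COP-like nuclei of heterozygous replicate 1, the latter from 29 nuclei. Each was the highest of its 6 libraries.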

How the results depend on the processing

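The named member and Celsr3 differences kept direction and side of the threshold in 299 of their alternatives by limma, reversed in 14 and newly passed in 4. The count of members called in the classes, 0, became 1 with array weights (Nrg2 in D1 MSN-like nuclei) and ranged from 0 to 1 when libraries were left out in turn. Reversals were limited to differences near 0 over all nuclei, and the cause was not tested. Nrg1 (-0.1187 to 0.08459 with libraries left out) became 0.02852 with the mean of log2(value + 1), and 0.08459, 0.00044 and 0.04114 without wild type replicate 2 and heterozygous replicates 2 and 3. Nrg4 (-0.1804 to 0.2515) became -0.06629 in matched nuclei and -0.1804 without heterozygous replicate 2. Egfr (-0.08183 to 0.1089) became -0.03209 with size factors, -0.02762 with array weights and -0.0002415 with equal cluster weights, and -0.02871 and -0.08183 without wild type replicate 1 and heterozygous replicate 3. Erbb4 (-0.07945 to 0.1238) became 0.01334 with equal cluster weights, and 0.05901 and 0.1238 without wild type replicate 3 and heterozygous replicate 1.

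Counts over all genes moved more. Called genes went from 0 over all nuclei to 1 with shares above 0 and 9 with equal cluster weights. In D1 MSN-like nuclei 4 became 460 with array weights and 1 to 226 when libraries were left out, the latter without wild type replicate 1. In D2 MSN-like nuclei 2 became 157 with array weights, 4 with size factors (2 higher and 2 lower) and 0 to 108 when libraries were left out. Filters, shares, log means, a larger pseudocount and matched nuclei gave 1 to 5 in these classes. At an unadjusted p under 0.05, 63.2% of genes over all nuclei were higher in heterozygous libraries but 27.4% with size factors. The shares were 56.4% and 34% for D1, and 48.4% and 32.1% for D2 MSN-like nuclei. The highest class stayed in place for 7 of 8 members with resolution 0.5 or with the members in the clustering; Erbb4 moved to GABAergic interneuron-like nuclei (47.2 and 48.6).

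Deviations of same-numbered libraries from their group mean correlated at -0.0398, 0.141 and -0.0702, and wild type replicate 3 correlated most with heterozygous replicate 1 (0.184). With 3 libraries per group these correlations are tied to each other, so they cannot show whether libraries shared a batch. With the replicate number as a block, 0 members were called, and D2 MSN-like nuclei had 6 called genes in place of 2. Small classes limit the precision, with 29 to 75 COP-like and 30 to 44 cholinergic interneuron-like nuclei per library.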
